A study of Bos taurus and Sus scrofa with 6 samples.

Results

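Among the testis cells of 3 prepubertal cattle, 163 of 18504 called barcodes carried transcripts of germ cell genes together with those of at most 1 of the meiotic genes looked for. These barcodes, the members, were chosen by their UMIs (unique molecular identifiers, counts of captured RNA molecules): they had a UMI of at least 2 of 8 germ cell genes, DDX4, DAZL, MAEL, TDRD1, TDRD9, RNF17, MOV10L1 and TKTL1, and of at most 1 of 8 meiotic genes, SYCP1, SYCP2, SYCP3, SMC1B, STAG3, HORMAD1, DMC1 and MEIOB. There were 52 members in cattle 1, 70 in cattle 2 and 41 in cattle 3. The remaining 390 germ barcodes had at least 2 meiotic genes, and the 17951 other barcodes had fewer than 2 germ genes. The study made droplet-based single-cell RNA libraries from cells of whole Holstein testes taken by castration at 4.5 months of age, with 1 library per animal and about 8000 live cells loaded for each. The animals were untreated and all served as 1 group. The labels number the testis of cattle 2 and of cattle 3 alike beside different library tags, and each library was counted as 1 animal. A barcode counted as called from 460 UMIs in cattle 1, 972 in cattle 2 and 2644 in cattle 3, and the deposited tables held 5805223, 27409347 and 53325608 UMIs over all barcodes. Pig cells of the same series, 9457 of them called, were not used here.

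In the prepubertal testis, spermatogonia lie on the basement membrane of the seminiferous cords among Sertoli cells. Undifferentiated spermatogonia, which include the stem cells, divide and pass to differentiating spermatogonia that respond to retinoic acid. The last of these enter meiosis, in which homologous chromosomes pair along the synaptonemal complex. DDX4 is a germ cell RNA helicase, DAZL binds RNA and MAEL, TDRD1, TDRD9, RNF17 and MOV10L1 act in the piRNA pathway, which silences transposons. SYCP1, SYCP2 and SYCP3 build the synaptonemal complex, SMC1B and STAG3 belong to the meiotic cohesin, HORMAD1 marks unpaired axes, and DMC1 and MEIOB act in meiotic recombination.

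Members made up 1.47% of called barcodes in cattle 1 (exact 95% binomial interval 1.10% to 1.92%), 0.80% in cattle 2 (0.624% to 1.01%) and 0.660% in cattle 3 (0.474% to 0.895%), or 0.976% ± 0.431 (SD, n = 3). These intervals cover counting error only. With these UMI minimums the share was highest in the shallowest library, cattle 1, and lowest in the deepest, cattle 3. With a minimum of 500 UMIs it was 1.62%, 0.625% and 1.21% in cattle 1, 2 and 3. For members with no meiotic gene it was 0.677%, 0.206% and 0.354%. Cattle 2 was the lowest library in each of these settings. Of the germ barcodes, members were 72.2% in cattle 1, 31.0% in cattle 2 and 16.1% in cattle 3. TKTL1, a transketolase-like gene, had a UMI in 138 members, MAEL in 123, DAZL in 118, RNF17 in 53, TDRD9 in 40 and DDX4 in 31. The rule fixed these counts, which are given as a description. Just inside its limit, members with exactly 2 germ genes numbered 16, 20 and 16 in cattle 1, 2 and 3, and just outside it, barcodes with 1 germ gene numbered 58, 193 and 380.

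The data went against calling these cells free of meiotic signal. Of the 163 members, 99 had a UMI of 1 meiotic gene and 64 had none. The gene seen was most often SMC1B, in 41 members, then SYCP1 in 36 and STAG3 in 13. DMC1 and MEIOB, which are among the genes the rule limits, had no UMI in any of the 163 members, which allows up to 1.84% of such barcodes to have one and sets no limit on cells that express them. Summed over the 8 genes, meiotic RNA stood at 200 CPM (UMIs of a gene scaled to a library total of 1e6) in the members of cattle 1, 286 in cattle 2 and 94.7 in cattle 3. It stood at 716 CPM ± 23.6 in germ barcodes with at least 2 meiotic genes, at 6.84 ± 0.424 in other cells and at 43.2 ± 13.6 in barcodes with at most 50 UMIs, which stand for free RNA (SD, n = 3 libraries each). The barcodes are therefore named by the rule, as germ barcodes with at most 1 meiotic gene.

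Members had fewer UMIs per barcode at the median than the other germ barcodes, and the ranges overlapped, from 878 to 7308 UMIs in the members of cattle 1 against 1721 to 6217 in the others. Depth and RNA content of a cell cannot be told apart here. The median member had 3693 UMIs in cattle 1, 3472 in cattle 2 and 4762 in cattle 3, against 4678, 7039 and 17275 in germ barcodes with at least 2 meiotic genes and 786, 1697 and 4459 in other cells. Over all cattle, members were 76.7% of 30 germ barcodes under 2000 UMIs, 62.5% of 104 between 2000 and 4000, 35.7% of 168 between 4000 and 8000, 10.2% of 127 between 8000 and 16000 and 1.61% of 124 from 16000. The share fell with depth within each library. When the germ barcodes were thinned to 2000 UMIs each, leaving out 30 shallower ones, those with at most 1 meiotic gene went from 69.4% to 88.7% in cattle 1, from 27.2% to 72.3% in cattle 2 and from 16.1% to 73.3% in cattle 3. Fewer UMIs can only lower the number of genes seen, so the direction was given by the thinning. At that depth, 63.2%, 62.0% and 68.2% of the barcodes that had at least 2 meiotic genes showed at most 1. The classes still differed at equal depth in the mean number of meiotic genes per barcode, which was 0.395, 0.536 and 0.195 in members and 1.21, 1.18 and 1.18 in the other germ barcodes. The rule chose on this measure, and the difference was not tested.

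**Figure D1:**
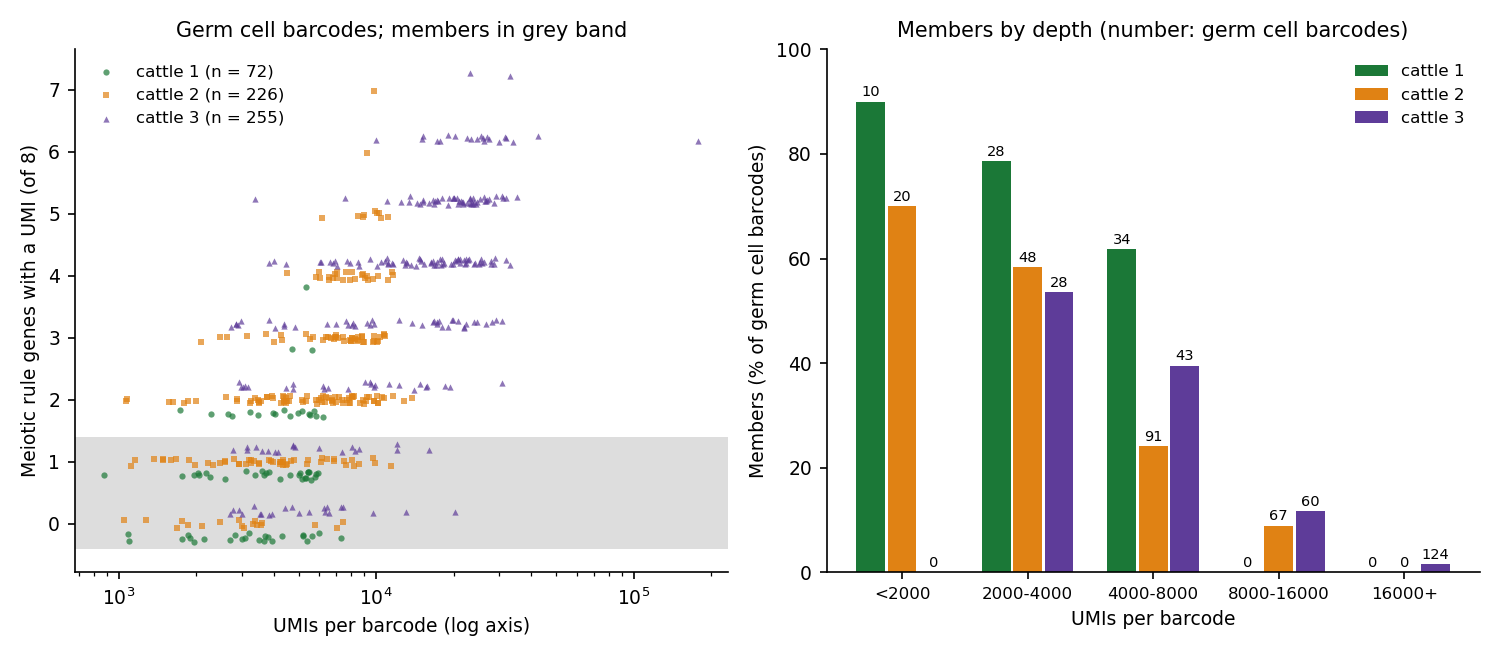
Left, UMIs per germ barcode (log axis) against the number of the 8 meiotic genes with a UMI, 1 point per barcode, with small vertical offsets by library; points in the grey band are members. Right, members as a percentage of germ barcodes by depth, with the number of germ barcodes over each bar; from the shallowest to the deepest bin the share falls from 90.0% to 61.8% in cattle 1, from 70.0% to 8.96% in cattle 2 and from 53.6% to 1.61% in cattle 3, and a 0 over a missing bar means that the library had no germ barcode of that depth.

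The label was checked against UCHL1 and ZBTB16, spermatogonial markers that the rule did not use. UCHL1, a ubiquitin hydrolase abundant in spermatogonia, stood at 1474 CPM in the members of cattle 1, 778 in cattle 2 and 635 in cattle 3, and at 58.5 CPM ± 9.0 in other cells (SD, n = 3). ZBTB16, a transcription factor that maintains the stem cell pool, stood at 251, 147 and 82.9 CPM in members and at 22.7 CPM ± 6.92 in other cells. Every library of members lay above every library of other cells for both genes, as it did for 27.7% of all genes tested. UCHL1 had a UMI in 141 members, a share of 86.2% ± 9.20, against 11.6% ± 8.74 of other cells, and ZBTB16 in 63, a share of 38.0% ± 8.46 against 6.39% ± 6.02 (SD, n = 3 libraries). Thinned to 2000 UMIs, the shares of members were 75.6% for UCHL1 and 22.6% for ZBTB16. In barcodes with at most 50 UMIs, UCHL1 stood at 152 CPM and ZBTB16 at 23.4.

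Members also held somatic RNA, with the highest level of the Sertoli, the myoid and stromal, the macrophage and the lymphocyte lists in cattle 3 and of the Leydig list in cattle 1. The Sertoli list of 20 genes, led by PTGDS, a prostaglandin synthase, summed to 1965 CPM in the members of cattle 1, 2411 in cattle 2 and 7302 in cattle 3, against 2189, 1379 and 1331 CPM in germ barcodes with at least 2 meiotic genes and 12726 ± 1553 in other cells. The myoid and stromal list of 17 genes, led by the smooth muscle actin ACTA2, summed to 1264, 1204 and 5991 CPM in members and to 1357, 665 and 762 in the other germ barcodes. The macrophage list of 12 genes, led by C1QA, summed to 384, 171 and 1362 CPM in members and to 342, 158 and 251 in the other germ barcodes. The lymphocyte list of 11 genes, led by CCL5, summed to 128, 112 and 371 CPM in members. The Leydig list of 12 genes, led by the hormone INSL3, summed to 5962, 970 and 1287 CPM in members and to 7034, 591 and 1021 in the other germ barcodes. Of the Sertoli genes, 4 had no UMI in any member, among them DHH, SOX8 and INHBB, of which the last had none in other cells either and SOX8 had 1. AMH had 12 UMIs over all members and FSHR 10. The endothelial list of 8 genes summed to 51.5 CPM in members and the erythroid list of 6 genes to 6.51 CPM, with 4 of the 6 at 0 in every library. In barcodes with at most 50 UMIs, the Sertoli list summed to 18121, 14526 and 10691 CPM, the Leydig list to 114725, 27066 and 18250, the myoid and stromal list to 2987, 4899 and 7086 and the macrophage list to 4341, 1967 and 2446. Of the 3 libraries of members, each lay under these levels for each of these lists. At least 3 genes of 1 somatic list had a UMI in 88.5%, 75.7% and 85.4% of members and in 95%, 90.4% and 96.7% of the deeper germ barcodes with at least 2 meiotic genes. With the members that met this count left out, 6, 17 and 6 members remained, 259 genes were higher than in other cells and 1599 lower. Of the single genes that could be tested, 17 single genes lost their call, NANOS3 turned its direction and 32 stayed on their side of the threshold.

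Members with 2 germ genes held less UCHL1 in each library than members with more. UCHL1 stood at 1635, 846 and 1013 CPM in members with at least 3 germ genes and at 980, 500 and 145 in those with exactly 2. It stood at 370, 130 and 78.9 CPM in barcodes with 1 germ gene. The 16 members of cattle 3 with 2 germ genes held 12599 CPM of the Sertoli list, above the 10936 CPM of other cells of that library, and 10221 CPM of the myoid and stromal list, near the 10290 of other cells. UCHL1 had a UMI in 50% of those 16, in 27.1% of the barcodes with 1 germ gene and in 21.6% of other cells of that library, and stood at 63.3 CPM in the last. The same class held 2482 and 7031 CPM of the Sertoli list in cattle 1 and 2, and members with at least 3 germ genes held 1797, 1288 and 3226 CPM in cattle 1, 2 and 3. The barcodes with the highest scores of the doublet caller Scrublet were marked, in a number set by the called barcodes of a library. These were 101 of 3545 called barcodes in cattle 1, 613 of 8751 in cattle 2 and 308 of 6208 in cattle 3. Among members, 2 of 52, 5 of 70 and 11 of 41 were marked. Members with no meiotic gene had 1402, 527 and 332 CPM of UCHL1 in cattle 1, 2 and 3, and those with 1 had 1528, 843 and 968. The Sertoli list stood at 1984, 5410 and 11280 CPM in the former and at 1951, 1638 and 2938 in the latter, so that the classes were close in cattle 1. Just outside the limit on meiotic genes, the 119 germ barcodes with exactly 2 of them had 1323 CPM ± 526 of UCHL1, against 1113 ± 365 in members with 1 (SD, n = 3). No member's barcode sequence was a member in another library, and 2 members shared theirs with a called barcode of another library. Of all UMIs of members, 1.21%, 4.21% and 5.15% came from mitochondrial genes in cattle 1, 2 and 3, against 1.66%, 4.15% and 5.0% in other cells.

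**Figure D2:**
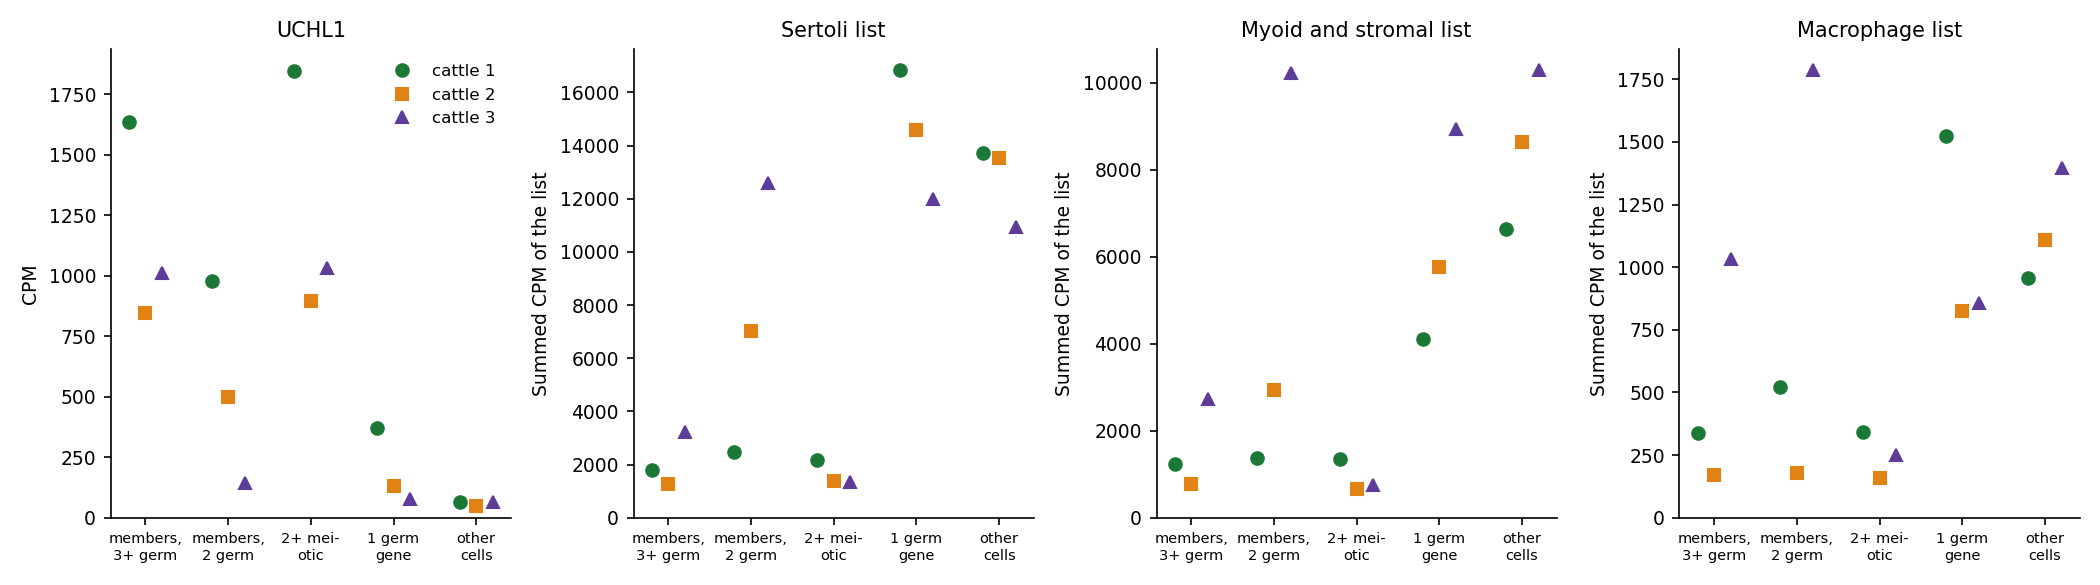
UCHL1 (CPM) and the summed level of the Sertoli, the myoid and stromal, and the macrophage lists (CPM) in members with at least 3 or exactly 2 germ genes, germ barcodes with at least 2 meiotic genes, barcodes with 1 germ gene and other cells; 1 symbol per library, axes from 0. For the Sertoli list, the members of cattle 3 with 2 germ genes lie at 12599 CPM, by the 10936 of other cells, and those with at least 3 at 3226; for UCHL1 the former lie at 145 CPM, above the 63.3 of other cells.

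What else the members expressed was tested by comparing UMI sums per library between members and other cells, over genes outside the rule. Of 13380 genes tested with edgeR's quasi-likelihood test, 1304 were higher in members (9.75%) and 1313 were lower (9.81%) at a Benjamini-Hochberg adjusted p under 0.05, together 19.6%. The median log2 fold change over all genes was −0.26. Barcodes chosen for germ genes bring the other genes of the same cells with them, so these calls describe the chosen barcodes and are no evidence for the choice. The counts rested on cattle 2, without which 0 genes were called in either direction, although 1000 higher and 1068 lower genes had an unadjusted p under 0.05. Scaling by library size alone in place of TMM raised log2 fold changes by 0.85 at the median and called 2981 genes higher and 412 lower, and levels in CPM are on that scale. With the animal as a block, 1822 genes were higher (13.6%) and 2411 lower (18.0%). In CPM, the 3 libraries of members lay wholly above those of other cells for 27.7% of the genes tested and wholly under them for 16.3%. Without cattle 3, 792 were higher and 1447 lower.

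Of 35 genes listed for undifferentiated spermatogonia, 23 could be tested, of which 13 were higher, 1 was lower and 9 were not called. The median log2 fold change was 2.29, against −0.26 over all genes, of which 9.75% were higher. Without members with somatic genes the median was 0.12 and 6 of 22 were higher, against 1.97% of all genes in that setting. ETV5, a transcription factor downstream of GDNF, stood at 51.2, 122 and 39.5 CPM in the members of cattle 1, 2 and 3 and at 7.99 CPM ± 0.393 in other cells, a log2 fold change of 2.29 ± 0.42 (SE, adjusted p = 0.00643). SALL4, a zinc finger factor of stem and progenitor spermatogonia, stood at 40.9, 38.4 and 19.7 CPM against 0.224 ± 0.195, higher by 5.91 ± 0.65 on the log2 scale (adjusted p = 0.00109). PIWIL4, the nuclear PIWI protein, stood at 56.3, 90.7 and 71.0 CPM against 1.16 ± 0.893. In these 3 genes each library of members lay above each library of other cells, as in 27.7% of all genes. UTF1 was at 30.7, 45.4 and 7.89 CPM against 0.287 ± 0.0288, higher by 5.74 ± 0.70 (adjusted p = 0.00150), and EGR4 was at 56.3, 76.8 and 3.95 CPM against 1.37 ± 0.989. Cattle 3 was the lowest library for both. UCHL1 was higher by 3.16 ± 0.40 (adjusted p = 0.00164) and ZBTB16 by 1.92 ± 0.39 (adjusted p = 0.00998).

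The GDNF receptor complex was seen at few UMIs. RET, its kinase, had 2, 6 and 1 UMIs in members and was higher by 4.47 ± 0.96 on the log2 scale (adjusted p = 0.0117). GFRA1, the GDNF co-receptor, had 6, 3 and 0 UMIs and did not pass the test (2.96 ± 1.08, adjusted p = 0.0803). GFRA2 stood at 81.9, 52.3 and 23.7 CPM against 5.37 ± 3.47 in other cells, higher by 2.46 ± 0.59 (adjusted p = 0.0176). LHX1, a GDNF-responsive factor, had 1, 4 and 2 UMIs and was called higher. THY1, a surface protein used to enrich spermatogonial stem cells in rodents, was the 1 lower gene of the list, at 20.5, 45.4 and 31.6 CPM against 79.5 ± 16.5 (−2.10 ± 0.38, adjusted p = 0.00651). Every library of members lay under every library of other cells, as in 16.3% of all genes. THY1 was not called with the UMI minimum of cattle 3 in every library (−1.43, adjusted p = 0.135). NANOS2 and NEUROG3 had no UMI in members, which allows up to 4.08 CPM each over the 735303 UMIs of members, and none in the other cells.

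**Figure D3:**
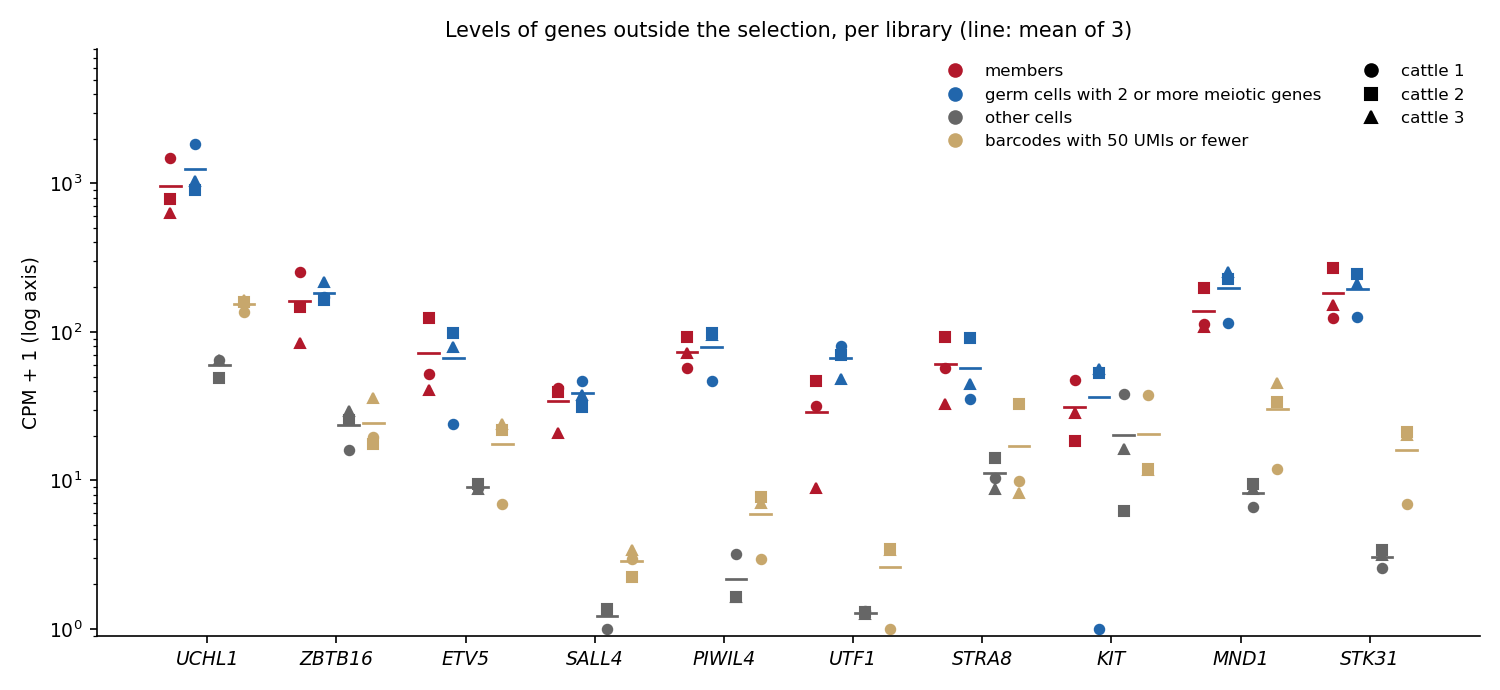
CPM plus 1 (log axis) of 10 genes outside the rule in members, germ barcodes with at least 2 meiotic genes, other cells and barcodes with at most 50 UMIs; symbols are the 3 libraries, lines their means, and a gene without a UMI lies at 1. UCHL1, ZBTB16, ETV5, SALL4, PIWIL4, UTF1, STRA8, MND1 and STK31 lie above other cells in every library of members, and KIT (46.1, 17.4 and 27.6 CPM in members) overlaps with them.

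Genes of primordial germ cells and gonocytes were seen at low levels. Of 9 tested, 4 were higher (POU5F1, TFAP2C, DND1 and NANOS3) and 1 was lower, ALPL, an alkaline phosphatase, with a median of 0.49. Over all genes tested, 9.75% were higher and 9.81% lower. POU5F1, a pluripotency factor, had 2, 1 and 2 UMIs in members. NANOS3, an RNA-binding protein of early germ cells, stood at 102, 24.4 and 35.5 CPM against 5.35 ± 2.42 in other cells, higher by 2.48 ± 0.59 (adjusted p = 0.0173). It was not called without cattle 3, and its direction turned, to −0.37 (adjusted p = 0.861), without members with somatic genes. LIN28A and SOX17 had no UMI in members.

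Among genes of differentiating spermatogonia, 4 of 11 tested were higher (STRA8, DNMT3A, CRABP1 and ESX1) and 2 were lower (CCND2 and CRABP2), with a median of 1.32. The shares over all genes tested were 9.75% higher and 9.81% lower. STRA8, the retinoic acid target that licenses meiosis, stood at 56.3, 90.7 and 31.6 CPM in members and 10.1 ± 2.80 in other cells, higher by 1.68 ± 0.42 (adjusted p = 0.0206). It was not called without cattle 3, with doublets removed, among deep germ barcodes or without members with somatic genes. A STRA8 UMI was found in 36 members, of which 35 also had UCHL1 and 12 also had ZBTB16. KIT, the receptor that marks differentiating spermatogonia, stood at 46.1, 17.4 and 27.6 CPM in members and 37.2, 5.22 and 15.3 in other cells, higher in members in each animal, although the groups overlapped. It was not called (−0.23 ± 0.75, adjusted p = 0.845, and −0.02 ± 0.43, adjusted p = 0.974, with the animal as a block). The sign of the fold depended on the scaling, with 0.66 for library size alone. A KIT UMI was found in 19 members, 12.6% ± 5.03, and in 3.95% ± 3.58 when members were thinned to 2000 UMIs. Of the other cells, which were not thinned, 3.09% ± 2.13 had one. Their median depth was 786, 1697 and 4459 UMIs in cattle 1, 2 and 3, so that they were deeper than the thinned members in cattle 3. DNMT3A, a de novo DNA methyltransferase, was higher by 1.73 ± 0.40 (adjusted p = 0.0154), and ESX1, an X-linked homeobox gene, stood at 328, 73.3 and 39.5 CPM against 1.46 ± 1.22.

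Of 30 tested meiotic genes that the rule did not use, 19 were higher in members than in other cells and none was lower, with a median of 2.93 and 26 of the 30 above 0. FKBP6, a chaperone of synapsis and of the piRNA pathway, stood at 322, 339 and 162 CPM against 4.35 ± 1.75 in other cells (5.16 ± 0.45, adjusted p = 0.000485). MND1, which assists strand exchange, stood at 113, 195 and 107 CPM against 7.27 ± 1.46 (3.38 ± 0.35, adjusted p = 0.000977). SYCE3 and TEX12, central element proteins of the synaptonemal complex, stood at 61.4, 55.8 and 23.7 CPM and at 46.1, 192 and 78.9 CPM, against 0.688 ± 0.232 and 5.02 ± 1.17. ZCWPW1, a histone reader at recombination hotspots, stood at 159, 129 and 103 CPM against 10.9 ± 2.62. In these 5 genes each library of members lay above each library of other cells, as in 27.7% of all genes, of which 9.75% were called higher. Over the 64 members with no UMI of the 8 rule genes, 7 of 28 tested meiotic genes were higher. Over all 13222 genes tested in those members, 149 were higher (1.13%) and 48 lower (0.363%).

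The next 2 lists stand beside 9.75% higher and 9.81% lower genes over all genes tested. Of 19 piRNA pathway genes outside the rule, 11 were higher, 1 was lower and 7 were not called, with a median of 3.56. The lower gene, MOV10, stood at 35.8, 34.9 and 43.4 CPM in members and 46.0, 40.2 and 53.1 in other cells, which overlapped. STK31, a Tudor domain kinase of germ cells, stood at 123, 269 and 150 CPM in members against 2.04 ± 0.430 in other cells (5.58 ± 0.42, adjusted p = 0.000389). ASZ1, a mitochondrial outer membrane protein of piRNA biogenesis, stood at 81.9, 147 and 111 CPM against 4.26 ± 1.53 (3.85 ± 0.40, adjusted p = 0.000977). GTSF1, a partner of PIWI proteins, stood at 251, 147 and 82.9 CPM against 4.37 ± 3.88. PLD6, the mitochondrial nuclease, had 66.5 CPM in cattle 1, 3.49 in cattle 2 and none in cattle 3 and was still called higher. Of 16 RNA regulators, 9 were higher and none was lower, with a median of 2.51. RBM46, a germ cell RNA-binding protein, stood at 81.9, 164 and 103 CPM against 0.938 ± 0.550 (5.91 ± 0.47, adjusted p = 0.000389).

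At least 3 of 15 G2 and M phase genes had a UMI in 59 members, 34.3% ± 11.3, in 73.4% ± 19.3 of the deeper germ barcodes with at least 2 meiotic genes and in 1.48% ± 0.150 of the shallower other cells (SD, n = 3). These shares were not matched for depth. Of 24 division genes tested, 5 were higher (CCNA2, CCNB1, CENPF, AURKA and MCM7), none was lower, 19 were not called and the median was 1.09. Over all genes tested, 9.75% were higher and 9.81% lower, which also stands beside the DNA methylation genes below. With the animal as a block 10 were higher and 1 was lower, against 13.6% and 18.0% of all genes. CCNA2, a cyclin of S and G2 phase, stood at 40.9, 27.9 and 23.7 CPM in members against 2.97 ± 0.248 in other cells (2.51 ± 0.46, adjusted p = 0.00659). AURKA, a spindle kinase, was higher by 3.02 ± 0.54 (adjusted p = 0.00601) and MCM7, a subunit of the replicative helicase, by 1.60 ± 0.35 (adjusted p = 0.0131). PCNA stood at 220, 304 and 197 CPM against 94.4 ± 15.4 and did not pass the test (0.49 ± 0.31, adjusted p = 0.286). Of 13 DNA methylation genes, 4 were higher, among them HELLS, a chromatin remodeller needed for methylation, at 66.5, 115 and 75.0 CPM against 5.78 ± 2.03 (3.01 ± 0.38, adjusted p = 0.00164).

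For the lists that follow, the shares over all genes tested were again 9.75% higher and 9.81% lower. Of 15 X-linked and cancer-testis genes, 10 were higher, TEX11, PAGE4 and NXF3 among them, and MAGED2 and FATE1 were lower, with a median of 4.46. PAGE4 stood at 61.4, 94.2 and 51.3 CPM against 3.31 ± 1.27 in other cells. Several genes of this list have close copies, between which reads cannot always be assigned. Of 27 germ cell transcription and chromatin genes, 12 were higher and none was lower. Of 12 germ cell isoforms of metabolic and ribosomal genes, 3 were higher and 2 lower. LDHC, the lactate dehydrogenase subunit of germ cells, stood at 51.2, 87.2 and 39.5 CPM against 2.77 ± 0.323 (3.59 ± 0.42, adjusted p = 0.00121). Of 4 spermatid genes that could be tested, SPACA1, an acrosomal membrane protein, was higher, with 66.5 CPM in cattle 1, 17.4 in cattle 2 and 3.95 in cattle 3, and 16 of the 24 spermatid genes in the table had no UMI in members. With the animal as a block 2 spermatid genes were higher, against 13.6% of all genes.

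Of all genes tested, 9.75% were higher and 9.81% lower, or 13.6% and 18.0% with the animal as a block. Of 25 niche receptors, 3 were higher (RET, GFRA2 and GFRA3) and 3 lower (FGFR2, TGFBR3 and CSF1R), and with the block 7 were higher and 4 lower. Of 18 niche ligands, TGFB1 and FGF9 were higher and AMH, the Sertoli cell hormone, was lower, and with the block 4 were lower. TGFB1 stood at 230 CPM in the members of cattle 1 and at 17.4 and 7.89 in cattle 2 and 3, against 4.43 ± 3.75 in other cells, and the groups overlapped.

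Among called genes with at least 20 CPM in members and the same direction in all 3 libraries, the 12 higher ones with the largest differences differed by 6.20 to 7.55 on the log2 scale. TEKT5, a tektin of the sperm flagellum, stood at 35.8, 76.8 and 7.89 CPM in members against 0.165 ± 0.131 in other cells (7.55 ± 0.88, adjusted p = 0.00121). DNTT, a DNA polymerase that works without a template, stood at 51.2, 27.9 and 11.8 CPM against 0.184 ± 0.125 (6.84 ± 0.81, adjusted p = 0.00122). AQP5, a water channel, stood at 15.4, 31.4 and 19.7 CPM against 0.0836 ± 0.0984. GAPDHS, the glycolytic enzyme of sperm, which is also in the list of isoforms, stood at 66.5, 80.3 and 11.8 CPM against 0.277 ± 0.375. The others were SPACA1, SAA1, which has close copies, BPIFA2A, CCDC73, ANHX, DLL3, IGSF21 and GSTO2. Cattle 3 had the lowest level of TEKT5 and DNTT.

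Part of the somatic genes were lower in members, against 9.81% of all genes tested. The lower genes numbered 7 of 18 for Sertoli cells, 6 of 11 for Leydig cells, 8 of 17 for myoid and stromal cells, 2 of 12 for macrophages and 7 of 11 for lymphocytes, with medians of −2.05, −3.21, −2.21, −1.73 and −2.92. GATM, an enzyme of creatine synthesis on the Sertoli list, was the 1 higher gene among them. With the animal as a block the lower genes were 12, 9, 16, 9 and 9 (18.0% of all genes were lower), and without cattle 3 they were 11, 7, 15, 7 and 7 (11.9% of all). They were 11, 4, 2, 0 and 2 with the UMI minimum of cattle 3 in every library (4.44% of all), 4, 6, 6, 0 and 6 with library size alone (3.08%) and 3, 6, 5, 2 and 7 with doublets removed (7.80%). For members with no meiotic gene they were 0, 1, 0, 0 and 4 (0.363%), and without cattle 2 no gene of any list was called. PTGDS stood at 901, 1316 and 4223 CPM in members against 7968 ± 1010 in other cells (−2.63 ± 0.67, adjusted p = 0.0225), and was not called without cattle 1. INSL3 stood at 5497, 701 and 1180 CPM in members against 51119, 5637 and 8364 in other cells, and at 111273, 24508 and 17398 CPM in barcodes with at most 50 UMIs. Its highest level was in cattle 1 in all of these. STAR, which brings cholesterol to the steroid enzymes, stood at 97.2, 66.3 and 11.8 CPM against 417 ± 226 (−3.80 ± 0.69, adjusted p = 0.00647). CCL5, a chemokine of T and NK cells, stood at 56.3, 48.9 and 142 CPM against 675 ± 75.5 (−3.81 ± 0.54, adjusted p = 0.00246). Among called genes with at least 20 CPM in other cells and the same direction in all 3 libraries, the 8 with the largest falls were GZMM, a granzyme, COX4I2, MYL7, FAM166B, ABI3, OTOS, FMOD and KLRC1. OTOS stood at 113, 59.3 and 98.7 CPM in members against 2435, 574 and 876 in other cells (−4.73 ± 0.68, adjusted p = 0.00255). None of the 8 endothelial and 3 erythroid genes tested was called, and with the block 1 endothelial gene was higher. The endothelial median was −0.19, and 0.65 with library size alone.

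**Figure D4:**
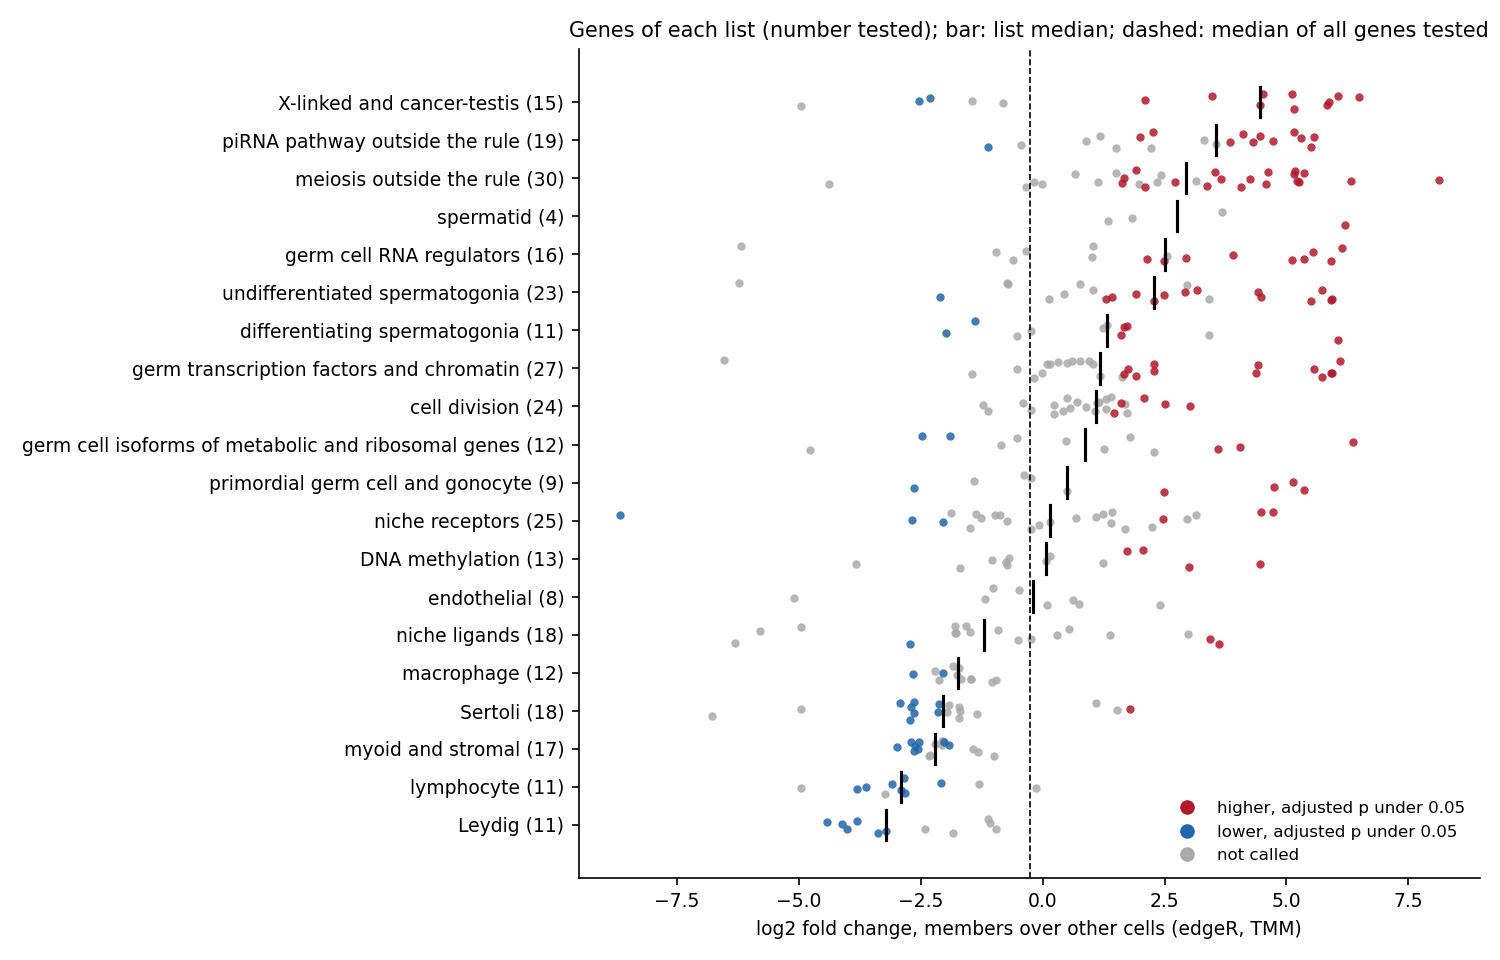
Log2 fold change of members over other cells (edgeR after TMM scaling) for each tested gene of 20 gene lists, coloured by the call; black bars are list medians and the dashed line is the median of all 13380 genes, −0.26. Germ cell lists lie to the right, with medians of 4.46 for X-linked and cancer-testis and 3.56 for piRNA genes, and Sertoli, myoid, lymphocyte and Leydig lists to the left, down to −3.21.

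Members were then compared with the germ barcodes that had at least 2 meiotic genes over genes outside the rule. Of 11755 genes tested with edgeR, 0 were called in either direction (0% of those tested), and DESeq2 called 0 as well. An unadjusted p under 0.05 was found for 389 higher and 183 lower genes. The lists of undifferentiated (23 tested, median −0.20) and differentiating spermatogonia (12, −0.07), of meiosis outside the rule (37, −0.48), of the piRNA pathway (21, −0.05) and of cell division (24, −0.47) lay near the −0.07 of all genes or under it, and the myoid and stromal (17, 1.83), macrophage (12, 1.64) and Sertoli lists (16, 1.46) lay above it. These 3 medians were 0.22, 0.59 and 0.25 without cattle 3, and 0.74, 0.91 and 0.32 for germ barcodes with at least 3 germ genes. Among single genes, UTF1 stood at 79.8, 69.0 and 47.5 CPM in the other germ barcodes (−1.06 ± 0.51, adjusted p = 0.998), SYCE3 at 239, 83.7 and 73.9 CPM (−1.20 ± 0.48, adjusted p = 0.968) and ZBTB16 at 171, 163 and 215 CPM (−0.17 ± 0.38, adjusted p = 0.998). ETV5 differed by 0.00 ± 0.51 and STRA8 by 0.06 ± 0.46 on the log2 scale.

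With the animal as a block, 168 genes (1.43%) were higher in members and 18 (0.153%) were lower than in the germ barcodes with at least 2 meiotic genes. Of the lists, 8 myoid and stromal, 6 Sertoli and 3 macrophage genes were among the higher ones, with INHBA, MAGED2 and FATE1 from other lists. Among them, ACTA2 (2.17 ± 0.29), DCN (1.76 ± 0.30), a matrix proteoglycan, and PTGDS (1.44 ± 0.22) had adjusted p of 4.75e-10, 2.22e-06 and 2.00e-07. DCN stood at 205, 244 and 1050 CPM in members and 194, 120 and 114 in the other germ barcodes, and cattle 3 was the highest library of members. No gene of the undifferentiated, differentiating, meiosis, piRNA or cell division lists was called with the block. The 2 lower genes of the lists were RPL10L, a germ cell ribosomal gene with no UMI in members and 62.9 CPM in the other germ barcodes of cattle 3 alone, and YBX2, a germ cell mRNA-binding protein, at 10.2, 3.49 and 0 CPM in members and 11.4, 9.19 and 82.3 in the others. UMIs per barcode differed between these classes. With the classes set on barcodes thinned to 2000 UMIs, the medians of the myoid and stromal, macrophage and Sertoli lists were 0.76, 0.34 and 0.62. Among germ barcodes of at least median depth, of which cattle 3 had 2 members, they were −0.04, −0.29 and 0.82. The medians of meiosis outside the rule and of cell division were −0.04 and −0.02 with the classes set on thinned barcodes. Among the germ barcodes of at least median depth these 2 medians were −0.54 and −0.41.

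The share of barcodes with a UMI of a stage gene moved with depth. Without thinning, KIT was seen in 12.6% ± 5.03 of members and 27.1% ± 26.0 of the other germ barcodes, and UTF1 in 10.1% ± 5.43 and 36.6% ± 9.25. Thinned to 2000 UMIs, KIT was seen in 3.95% of members and 6.74% of the others, UTF1 in 5.90% and 11.7%, STRA8 in 12.7% and 10.1%, and ZBTB16 in 22.6% and 25.5%. KIT in the other germ barcodes came from cattle 2 and 3, with 51.5 and 55.6 CPM, and its 0 UMIs in the 20 barcodes of cattle 1 allow up to 34.2 CPM. ARRDC5, the gene that the study went on to knock out in mice, had 1 UMI in members, in cattle 2, 1 in the other germ barcodes, in cattle 3, and 14 and 13 in the other cells of cattle 2 and 3. At these counts no difference was detectable (0.57 ± 1.72 against other cells, adjusted p = 0.832).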

How the data were processed

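Per the labels and the study's methods, testis cells of 3 cattle were sequenced in droplets, and the authors deposited raw UMI count tables of every barcode and 19994 genes, made with Cell Ranger 2.1.0 on ARS-UCD1.2 according to the submitters' processing notes. From these counts, barcodes were classed by the UMI minimums and genes given in the report. Raw counts were summed per library and class. Genes with at least 10 counts over 6 sums, without the 16 genes of the rule, went into the quasi-likelihood test of edgeR 4.0.16 under R 4.3.3 (TMM, cell class only, Benjamini-Hochberg adjustment at 0.05). SE of a log2 fold change was its absolute value divided by the square root of the F statistic of the test. DESeq2 1.42.0, a block by animal and other filters were alternatives. Doublets were ranked with Scrublet in scanpy 1.11.5, and the highest 0.8% for every 1000 cells were marked but kept. Members were thinned to 2000 UMIs by drawing UMIs without replacement.

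The sums of an animal come from 1 library and are paired. Deviations from the class means correlated within an animal at 0.41, 0.27 and 0.27 against other cells and at 0.41, 0.45 and 0.18 against germ barcodes with at least 2 meiotic genes. Counts were also simulated, with the same dispersion for every gene and no animal effect, so the simulated sums were not paired. On them, the test against other cells (13380 genes) recovered 5% of genes changed by 1 and 24% of those changed by 2 on the log2 scale. The test against the other germ barcodes (11755 genes) recovered 1% and 47%, and both had 0% false calls there. These rates hold for that setting and were not measured on the real, paired sums. Genes named outside the lists were the 12 higher and 8 lower called genes with the largest log2 fold changes, the same direction in all 3 libraries and at least 20 CPM in the higher class. Members, lists and tests were chosen with earlier results of these data known. The p-values measure the spread between 3 animals of 1 breed and age.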

Additional observations from a re-analysis of the deposited data

How the results depend on the processing

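In members against other cells, counts of higher genes ranged from 0 to 1284 and of lower genes from 0 to 1447 when 1 animal was left out, with 0 in both directions without cattle 2. Higher genes numbered 2981 with library size alone, 3432 with that scaling and the replicate block (chosen after seeing the data), 578 among germ barcodes of at least median depth, 149 for members with no meiotic gene and 259 without members that had at least 3 genes of a somatic list. Lower genes numbered 412 with library size alone, 864 with that scaling and the block, 2411 with the replicate block, 575 with the UMI minimum of cattle 3 in every library, 2007 with at least 3 germ genes and 48 for members with no meiotic gene. Against germ barcodes with at least 2 meiotic genes, higher and lower genes numbered 168 and 18 with the replicate block, 111 and 25 without a count filter and 6 and 8 among deep germ barcodes, of which cattle 3 had 2 members. They ranged from 0 to 40 and from 0 to 12 when 1 animal was left out, the highest without cattle 2. Both stayed at 0 with classes set on thinned barcodes, which was also chosen after seeing the data. The share of members moved from 0.976% to 0.412% with no meiotic gene and to 15.2% with the UMI minimum of cattle 3, which leaves few cells in cattle 1. It ranged from 0.730% to 1.13% without 1 animal. With a minimum of 500 UMIs it was 1.15%, and cattle 3 moved from 0.660% to 1.21%, above the 0.625% of cattle 2. The shares with UCHL1 and ZBTB16 moved to 75.6% and 22.6% in thinned members. Of 56 single genes, some of which could not be tested in each setting, NANOS3 reversed, to −0.37 without members with somatic genes. PTGDS lost its call without cattle 1, 52 genes without cattle 2, KLRC1, NANOS3 and STRA8 without cattle 3, STRA8 with doublets removed and KLRC1 with library size alone. Calls were also lost by 29 genes for members with no meiotic gene, 17 without members with somatic genes, 8 among deep germ barcodes and 5 with the UMI minimum of cattle 3. With the block, none of these 56 genes changed its call against other cells, while counts of some lists did. The causes were not tested. Members numbered 41 to 70 a library, with 195390 to 286546 UMIs.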
